A study of Mus musculus with 6 samples.

Results

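The clustered replication-dependent histone genes were described in mouse myoblasts in which a chimeric DUX4-family factor was switched on. The members were all genes whose symbol began with Hist1h, Hist2h, Hist3h or Hist4h, which gave 63 of the 24028 genes in the count table. They divided by symbol into 6 H1, 16 H2A, 18 H2B, 10 H3 and 13 H4 genes, and H2A, H2B, H3 and H4 are called core histones here. The cells were a clonal line of C2C12, an immortalised mouse myoblast line, grown under 2.6 µg/ml puromycin and carrying the doxycycline-inducible, codon-altered transgene MMH. The transgene fuses the amino-terminal part of mouse Dux, homeodomains included, to the carboxy-terminal part of human DUX4, without the human homeodomains. Both groups carried it. Of 6 separate cultures, 3 received doxycycline at 2 µg/ml (induced) and 3 did not (uninduced), with 1 library each. The time under the drug was 18 h by the series text and 36 h by the sample protocol. Cells given the drug but lacking the transgene were not analysed here, hence drug and factor cannot be told apart, and a single clone stands for the line.

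Replication-dependent histone genes supply the proteins that package newly made DNA. H2A, H2B, H3 and H4 form the octamer around which DNA is wrapped, and H1 binds the linker DNA between nucleosomes. Most of these genes have no intron, and they lie together in a few clusters. Their messages are unusual among those of animal cells in that most end not in a poly(A) tail but in a short stem-loop, which is bound by the stem-loop binding protein SLBP. Transcription of the clusters depends on NPAT, and the messages normally accumulate in S phase and are degraded when DNA synthesis stops. Replacement histones, in contrast, are encoded outside the clusters by genes that are expressed throughout the cell cycle and polyadenylated.

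The stem-loop is the shared feature of these messages and is shown first because the libraries were made from polyadenylated RNA. The search asked for a perfect stem of 6 base pairs beginning with GG, closing a loop of 4 bases beginning with TT. Such a stem-loop was found downstream of the stop codon in the GENCODE M21 model of 40 of the 63 members. In the lines that follow, written 5′ to 3′ as DNA, capitals mark the stem and loop.
Hist1h1c: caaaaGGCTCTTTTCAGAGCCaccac
Hist1h2ad: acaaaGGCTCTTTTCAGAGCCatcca
Hist1h2bb: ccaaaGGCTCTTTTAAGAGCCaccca
Hist1h3c: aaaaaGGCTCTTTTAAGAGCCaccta
Hist1h4m: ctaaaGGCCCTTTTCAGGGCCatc
Hist1h4j: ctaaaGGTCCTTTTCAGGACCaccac
The most common form, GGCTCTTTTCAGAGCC, was found in 22 members, all of H1, H2A, H2B or H3. All 11 H4 members with a stem-loop had 1 of 3 other forms, of which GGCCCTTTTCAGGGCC, in 7 members, was the most frequent. The models of the other 23 members held no such stem-loop before their annotated end. A polyadenylation signal, AATAAA, followed the stem-loop within the model in 13 of the 40 members.

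The stretch before the start site was compared next, because all tested core members rose. RefSeq promoters of GRCm38.p6, running from 250 bases before to 50 after the start, were matched for 57 members, with 58 promoters. Searched on both strands were CCAAT, a site of the factor NF-Y, then the common TATA box written TATAAA, then the octamer of POU factors written ATTTGCAT, and a palindrome of paired homeodomain proteins written TGATTNAATCA. None of these motifs contains another. In the lines that follow, the 250 bases before the start are given 5′ to 3′ on the gene's strand, and capitals mark matches on either strand.
Hist1h1c (chr13:23738557-23738806, plus strand): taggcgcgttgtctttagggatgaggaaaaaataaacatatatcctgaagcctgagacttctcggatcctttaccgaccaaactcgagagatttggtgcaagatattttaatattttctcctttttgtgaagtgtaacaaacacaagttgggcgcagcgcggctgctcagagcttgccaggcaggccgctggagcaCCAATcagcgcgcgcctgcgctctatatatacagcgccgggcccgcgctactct
Hist1h2ac (chr13:23683960-23684209, minus strand): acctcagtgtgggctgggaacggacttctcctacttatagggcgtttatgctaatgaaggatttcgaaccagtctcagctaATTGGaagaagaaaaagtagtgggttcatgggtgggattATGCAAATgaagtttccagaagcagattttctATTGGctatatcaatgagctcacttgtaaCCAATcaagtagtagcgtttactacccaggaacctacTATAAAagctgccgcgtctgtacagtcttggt
Hist1h3c (chr13:23745522-23745771, minus strand): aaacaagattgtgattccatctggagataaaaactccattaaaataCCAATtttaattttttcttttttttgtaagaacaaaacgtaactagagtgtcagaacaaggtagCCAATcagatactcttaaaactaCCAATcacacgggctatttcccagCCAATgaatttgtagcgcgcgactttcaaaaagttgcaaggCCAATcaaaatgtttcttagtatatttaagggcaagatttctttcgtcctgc
Hist1h4m (chr13:21811496-21811745, plus strand): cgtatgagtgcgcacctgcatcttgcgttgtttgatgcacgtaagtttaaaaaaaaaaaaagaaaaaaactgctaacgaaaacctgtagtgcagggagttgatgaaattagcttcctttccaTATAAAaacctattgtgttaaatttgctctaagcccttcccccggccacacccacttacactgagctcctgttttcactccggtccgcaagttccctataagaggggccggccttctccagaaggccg
CCAAT was present in 84.5% of member promoters and in 37.4% of all 32851 promoters. Every H1, H2A, H2B and H3 promoter held it, against 3 of 12 H4 promoters. TATAAA was found in 56.9% of member promoters and 13.6% of all. The octamer occurred in 7 of 16 H2A and 7 of 16 H2B promoters and in none of the other classes, which made 24.1% of member promoters against 1.74% of all. The palindrome was in 0 of 58 member promoters and in 0.0335% of all promoters. It is too rare for its absence from 58 promoters to say anything about the members. These are matches of letters and not bound sites.

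The libraries held 21.5 to 24.5 M counts. The markers Myod1, Des, Cdh15, Itga7 and Myf5 were detected in every library, whereas Pax7 and Msc had at most 4 counts in any library. All 5 tested myoblast markers fell, and their sum was 1651 to 1659 CPM (counts scaled to TMM-adjusted library totals) without the drug and 846 to 878 CPM with it. Induced replicate 2 stood apart for histones. It had the lowest CPM of the induced libraries in 49 of the 51 tested core members (96.1%), against 35.5% of all tested genes. Summed over all members, its CPM was 0.779 of the mean of the other two induced libraries. Uninduced replicate 3 was the lowest uninduced library in 12 of 13 tested H2A members but in 10 of 38 of the other core members.

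Counts of core histone messages rose in induced cells and most H1 genes did not pass the test. Counts at the 63 members together made up 0.0538%, 0.0541% and 0.0507% of all counts without the drug and 0.143%, 0.110% and 0.137% with it. On TMM-scaled sizes the sum was 386, 386 and 364 CPM without the drug and 2001, 1529 and 1922 CPM with it. The groups did not overlap, and the induced mean was 4.80-fold higher, or 5.18-fold without induced replicate 2. Of the 56 members with enough counts to be tested, 52 were higher, 0 lower and 4 not called (edgeR's quasi-likelihood test, Benjamini-Hochberg adjusted p under 0.05 over 12969 genes). Across all tested genes 41.3% were called higher and 41.2% lower. All 51 tested core members were called, and all 51 also when tested against a rise of 1.5-fold (edgeR's glmTreat), as 23.4% of all tested genes were. Their median log2 fold change was 2.31, against -0.01 for all tested genes. The 51 include Hist4h4 and Hist2h2bb, which passed the count filter only with the help of their induced counts, so their calls carry no weight here. As these are bulk libraries, a change in the share of cells that make histone messages and a change in the level per cell cannot be told apart. The libraries were made from polyadenylated RNA, and most of these messages end without a poly(A) tail. The values therefore describe the histone messages that entered the libraries and not the whole of them.

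**Figure D1:**
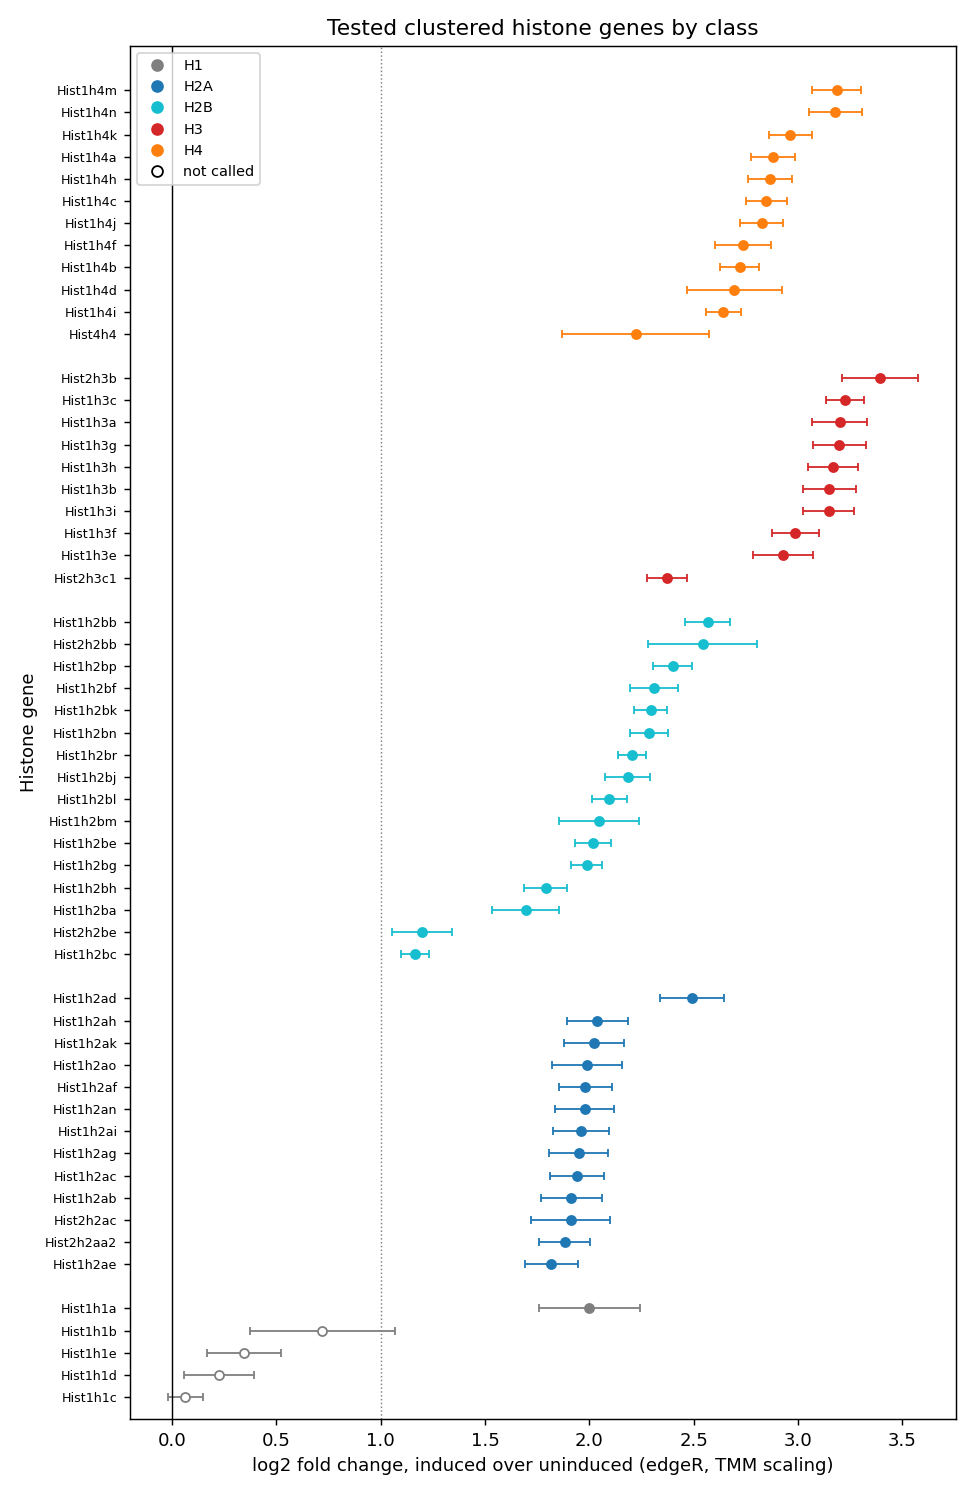
Log2 fold change of each of the 56 tested histone genes (edgeR, TMM scaling), grouped by class, with bars of 1 standard error; open circles were not called, and the dotted line marks a 2-fold rise. All core genes lie right of the dotted line, H3 and H4 genes mostly further right than H2A and H2B genes, and 4 of 5 H1 genes lie left of it.

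Higher and lower are meant against the bulk of genes, because no added RNA standard is named in the sources used here. When libraries were scaled by their totals alone (library size alone), the median of all tested genes was -0.97 on the log2 scale, and with upper-quartile scaling it was -0.16. With library size alone 50 of 51 core members were still called higher, with a median of 1.35, and 3 of 5 tested H1 members were called lower. Of all 12969 tested genes, 1977 were called higher and 9949 lower under that scaling.

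The linker histones differed from the core histones. Hist1h1c, the H1 gene with the most counts, was at 28.3, 24.5 and 24.5 CPM without and 29.5, 22.8 and 28.2 CPM with doxycycline. The groups overlapped, with a log2 fold change of 0.06 ± 0.08 by edgeR (standard error, adjusted p = 0.50). Hist1h1d, at 2.93, 2.43 and 2.62 against 3.13, 3.24 and 2.98 CPM, was at 0.22 ± 0.17 (edgeR adjusted p = 0.21). Hist1h1e overlapped between groups, at 2.93, 2.14 and 2.62 against 3.13, 2.85 and 3.79 CPM, with a log2 fold change of 0.35 ± 0.18 (edgeR adjusted p = 0.075). The GENCODE model of Hist1h1e overlaps that of Hist1h2be (2.02 ± 0.09) on the same strand. How reads in such an overlap were counted is not given in the sources used here. Hist1h1b was low in every library, at 0.329, 0.550 and 0.721 against 0.741, 1.04 and 0.861 CPM, and was at 0.72 ± 0.35 (edgeR adjusted p = 0.059). The one H1 gene that rose was Hist1h1a, from 0.688, 0.647 and 0.623 to 3.08, 2.01 and 2.76 CPM, a log2 fold change of 2.00 ± 0.24. Single libraries or the tool decided some of these calls. Hist1h1e was called higher without uninduced replicate 1 (edgeR adjusted p = 0.0383) or without induced replicate 2 (edgeR adjusted p = 0.0455), and Hist1h1b without uninduced replicate 3 (edgeR adjusted p = 0.0248) or by limma-voom with all 6 libraries (adjusted p = 0.0443). With library size alone Hist1h1c fell by 0.90, Hist1h1d fell by 0.74 and Hist1h1e fell by 0.62 on the log2 scale. The median of all tested genes was -0.97 under that scaling.

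The H2A genes covered a narrow range. All 13 tested members of 16 rose, with a median log2 fold change of 1.96 and a range of 1.82 to 2.49. Hist1h2ad stood at the top. It was at 19.0, 20.1 and 16.5 CPM without and 113, 83.2 and 116 CPM with doxycycline, a log2 fold change of 2.49 ± 0.15 by edgeR (standard error, adjusted p = 7.0e-06). Hist1h2ao went from 19.8, 20.5 and 16.2 to 82.3, 58.8 and 83.0 CPM, a log2 fold change of 1.99 ± 0.17. Next after Hist1h2ad came Hist1h2ah and Hist1h2ak, at 2.04 ± 0.15 and 2.02 ± 0.14. The gap between Hist1h2ad and the next member was wider than the range of the other 12, which lay between 1.82 and 2.04. In all of these members the lowest induced library was above the highest uninduced library. The share of all tested genes whose groups did not overlap was not counted, so this does not set the members apart. The median share of an H2A member's model also found in another gene's model was 62.6%, counted in short windows of sequence. How reads that fit several genes were counted is not given, so the 13 values may not be separate readings. The part of shared reads in the narrow range was not tested.

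The H2B genes covered a wider range. All 16 tested members of 18 rose, with a median log2 fold change of 2.14 and a range of 1.16 to 2.57. Hist1h2br, the H2B gene with the most counts, went from 20.4, 21.5 and 21.3 to 107, 86.2 and 98.0 CPM, a log2 fold change of 2.20 ± 0.07 by edgeR (standard error, adjusted p = 6.4e-18). Hist1h2bb had the largest rise, from 3.44, 3.53 and 3.41 to 22.6, 17.7 and 21.1 CPM (2.57 ± 0.11). Hist2h2bb, at 2.54 ± 0.26, and Hist1h2bp, at 2.40 ± 0.09, followed, and these 3 were not tested against each other. Hist2h2bb reached the minimum of the count filter in 2 of 3 uninduced libraries and in all 3 induced ones. The uninduced libraries alone would not have kept Hist2h2bb, so its call carries no weight. The smallest rise in the class was that of Hist1h2bc, from 18.9, 19.6 and 20.7 to 46.0, 40.5 and 45.9 CPM, a log2 fold change of 1.16 ± 0.07. Hist2h2be lay beside it, at 3.02, 2.43 and 2.36 against 5.81, 6.41 and 5.80 CPM (1.20 ± 0.15). Hist2h2be was chosen after its values were seen. It was the one core member not called with library size alone, where its log2 fold change was 0.23. The gene models of Hist1h2bc and Hist2h2be both held no stem-loop, although those of 6 other H2B members, tested or not, held none either, Hist2h2bb among them. A model that ends before a stem-loop shows none. The longest model was 381 bases for Hist2h2bb, 1156 for Hist1h2bc, 2620 for Hist2h2be and 2197 for Hist1h2br, which also held none.

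The H3 genes rose most. All 10 were tested and all were higher, with a median log2 fold change of 3.16. Hist2h3b went from 0.808, 0.971 and 1.21 to 12.5, 8.09 and 10.7 CPM, a log2 fold change of 3.39 ± 0.18 by edgeR (standard error, adjusted p = 6.1e-14). Hist1h3c went from 5.21, 5.82 and 5.57 to 55.1, 44.3 and 55.4 CPM (3.23 ± 0.09), and Hist1h3a from 3.68, 4.33 and 3.87 to 39.3, 28.6 and 41.0 CPM (3.20 ± 0.13). Hist1h3h, the H3 gene with the second largest number of counts, was at 5.87, 6.28 and 5.74 against 58.4, 42.7 and 59.2 CPM (3.17 ± 0.12). These 4 lay close together for their standard errors and were not tested against each other. Hist2h3c1, the H3 gene with the most counts, rose least, from 11.6, 10.4 and 9.80 to 61.0, 46.0 and 57.3 CPM, a log2 fold change of 2.37 ± 0.10. It lay below the other 9 members, which ran from 2.93 to 3.39. Its stem-loop was followed by AATAAA within the model, unlike that of the other 5 H3 members with a stem-loop.

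The H4 genes came close behind. All 12 tested members of 13 rose, with a median log2 fold change of 2.84. Hist1h4m went from 4.73, 5.92 and 5.80 to 58.5, 43.4 and 47.1 CPM, a log2 fold change of 3.19 ± 0.12 by edgeR (standard error, adjusted p = 6.6e-13). Hist1h4n, at 3.18 ± 0.13, lay within the error of Hist1h4m. Hist1h4k went from 5.21, 4.69 and 5.38 to 45.4, 33.7 and 39.9 CPM (2.96 ± 0.10). Hist1h4i, the H4 gene with the most counts, had one of the smaller rises, from 13.8, 12.8 and 12.9 to 92.7, 70.7 and 82.8 CPM (2.64 ± 0.08). The smallest was that of Hist4h4, the lone member of the Hist4 cluster, at 0.210, 0.259 and 0.262 against 1.14, 1.36 and 0.976 CPM (2.22 ± 0.35). No uninduced library reached the filter's minimum for Hist4h4, so it was tested only through its induced counts, and its call carries no weight.

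The make-up of the histone counts differed between the groups in every library. Summed CPM in induced cells was 1.14-fold that of uninduced cells for H1, 4.10-fold for H2A, 4.05-fold for H2B, 8.06-fold for H3 and 7.28-fold for H4, as descriptions without a test. Ratios within a library do not depend on the scaling between libraries. H3 and H4 counts per 100 H2A and H2B counts were 41.7, 40.7 and 45.8 without and 82.6, 79.7 and 76.8 with doxycycline, or 42.7 ± 2.70 and 79.7 ± 2.92 (SD, n = 3 each). H1 counts per 100 core counts were 10.0, 8.51 and 9.39 without and 2.02, 2.14 and 2.05 with doxycycline, or 9.31 ± 0.768 and 2.07 ± 0.0615 (SD, n = 3 each). The groups did not overlap in either ratio, and in both ratios induced replicate 2 lay beside the other induced libraries. Counts were not divided by gene length here, so these are shares of counts and not of molecules. Hist1h1c gave 946, 757 and 748 of the 1177, 936 and 952 H1 counts without doxycycline. With doxycycline it gave 517, 353 and 492 of 694, 494 and 673. Without Hist1h1c the log2 ratio of summed H1 counts was 0.61 in place of 0.19.

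**Figure D2:**
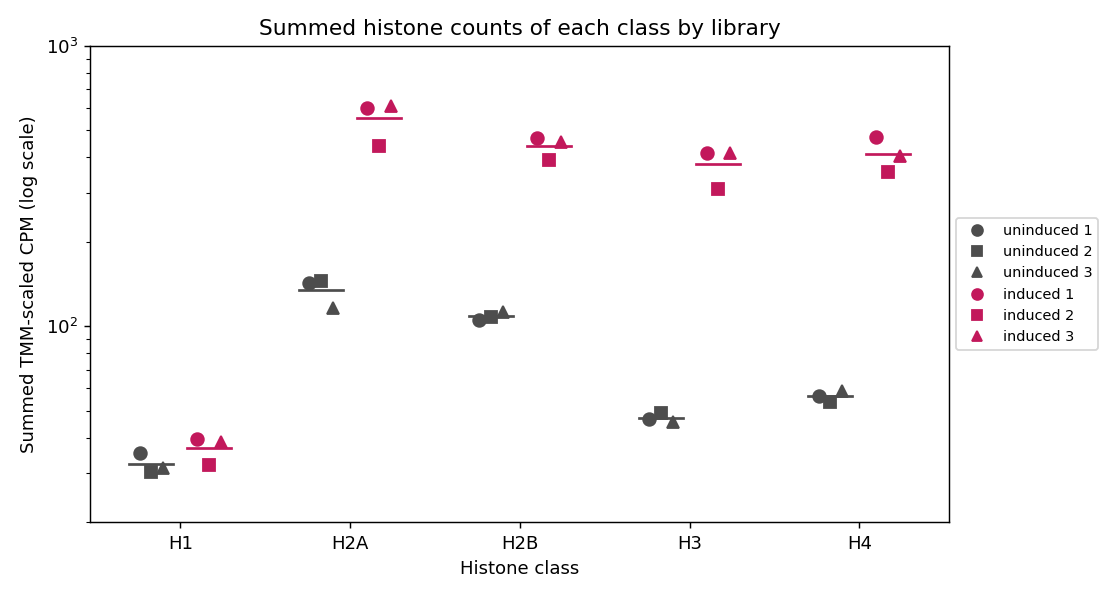
Summed TMM-scaled CPM (log axis) of the H1, H2A, H2B, H3 and H4 genes in each of the 6 libraries, with a line at the mean of each group of 3. The induced libraries lie above the uninduced ones in the 4 core classes, induced replicate 2 is the lowest induced library in every class, and the groups overlap for H1.

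**Figure D3:**
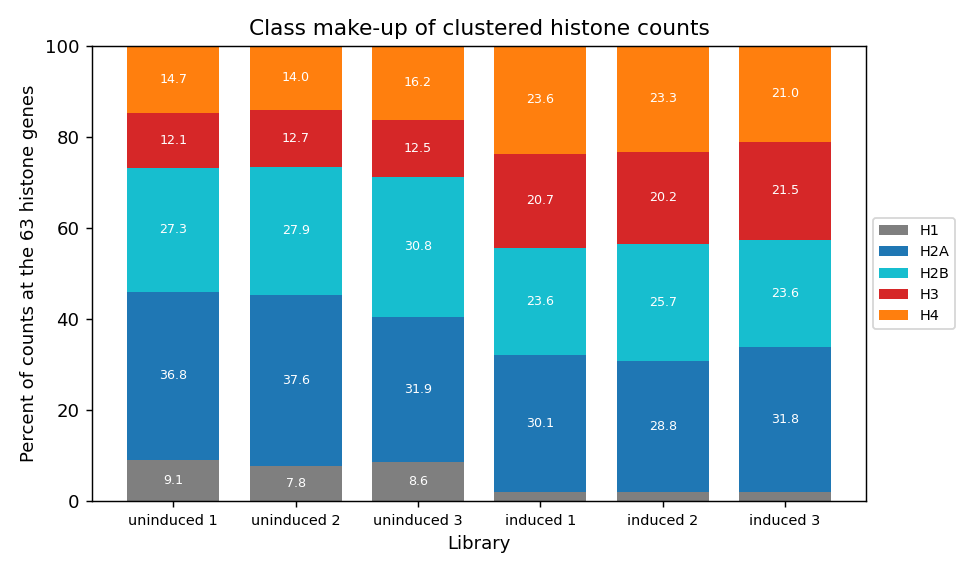
Percent of the counts at the 63 histone genes that fell in each class, for each library. H3 took 12.1% to 12.7% of histone counts in uninduced and 20.2% to 21.5% in induced libraries, and H1 took 7.84% to 9.13% and 1.98% to 2.09%.

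Testis-type members and sparse members were read separately. Hist1h2ba, a testis-type H2B, rose from 2.30, 2.56 and 2.29 to 8.83, 5.57 and 8.61 CPM, a log2 fold change of 1.69 ± 0.16 by edgeR (standard error, adjusted p = 1.3e-09). The model of Hist1h2ba shares 38.2% of its 50-base windows with other genes, 13 of them members. Hist1h2aa, the testis-type H2A beside it, had 0 counts without and 7 with doxycycline, with a count in 2 of 3 induced libraries. That is 4.39-fold higher when the 0 is read as a floor of 3 counts summed over the group. Hist1h1t, the testis-type H1, had 5 counts without and 0 with doxycycline. Summed testis germ cell markers were at 0.295 to 0.449 CPM without and 0.171 to 0.388 CPM with doxycycline, with 2 of the 5 at 0 in every library. Of the other untested members, Hist2h2ab had 0 and 3 counts, Hist3h2a had none, Hist3h2ba had 8 and 17, and Hist2h4 had 9 and 27. The pseudogene Hist3h2bb-ps had 0 and 5 counts, with 4, 1 and 0 in the induced libraries, or 3.13-fold higher on the same floor. These counts were too few for a test. The floor covers counting error in the 0 only and the induced counts are taken as exact, so neither fold is a lower bound.

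Core members of both large clusters rose. The Hist1 cluster, on chromosome 13 of GRCm38, held 51 members in 3 blocks. The first block (16 members, 21715711 to 21837530) was 5.41-fold higher in summed CPM, the second (5 members, 22035122 to 22043658) 4.80-fold and the third (30 members, 23531044 to 23934913) 4.45-fold. The third block holds 5 of the 6 H1 genes. Its tested core members had a median log2 fold change of 2.63, against 2.28 in the first block. Within a class the blocks were close, with medians of 1.94 in the third and 1.98 in the first block for H2A, 1.99 and 2.20 for H2B, 3.18 and 3.16 for H3, and 2.79 and 3.07 for H4. The Hist2 cluster, on chromosome 3 from 96219885 to 96270192, went from 24.9, 21.9 and 21.0 to 116, 86.6 and 108 CPM in sum, 4.58-fold higher, and all 6 of its tested members rose. Hist2h2bb, whose call carries no weight, is among the 6. No member of the Hist3 cluster, on chromosome 11 from 58948911 to 58955192, was tested. Hist4h4 is on chromosome 6 from 136803993 to 136804431.

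Many H2A and H2B genes stand head to head and share the stretch between their starts. There were 11 such pairs with starts 164 to 281 bases apart, and both genes were tested in 9. H2B was above H2A in 6 of the 9 pairs and below it in 3, with a median difference of 0.17 on the log2 scale. The pair with the largest difference was Hist1h2ac and Hist1h2bc, whose starts lie 240 bases apart, so that the Hist1h2ac promoter printed above is also that of Hist1h2bc on the other strand. Hist1h2ac went from 9.16, 9.51 and 7.47 to 36.8, 26.4 and 37.0 CPM, a log2 fold change of 1.94 ± 0.13, against 1.16 ± 0.07 for Hist1h2bc. In the pair of Hist2h2ac (1.91 ± 0.19) and Hist2h2be (1.20 ± 0.15) the H2B gene was likewise lower, by 0.71. In the other 7 pairs the difference lay between -0.18 and 0.42. These differences between genes were not tested.

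**Figure D4:**
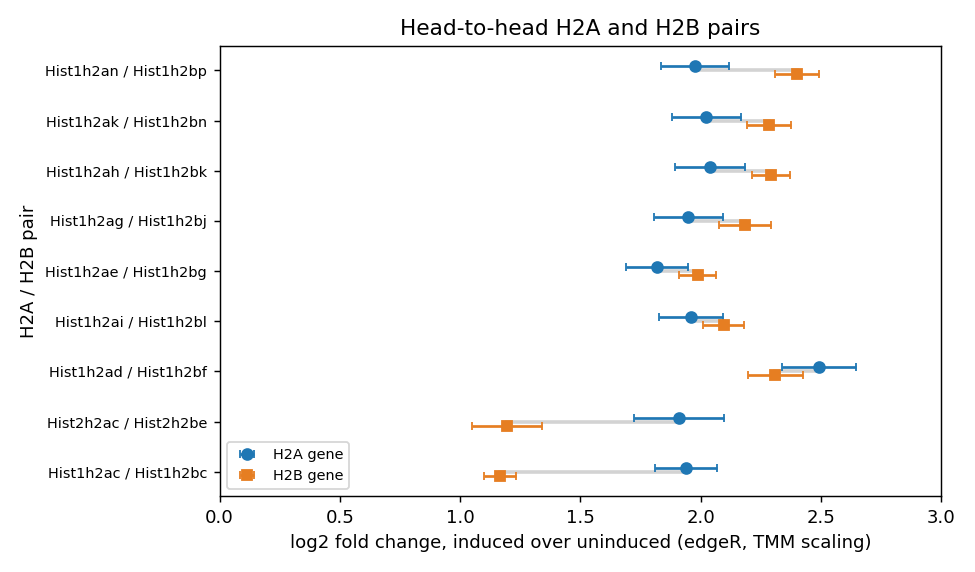
Log2 fold change of the H2A gene (circles) and the H2B gene (squares) in the 9 head-to-head pairs in which both were tested, with bars of 1 standard error. In 7 pairs the values lie near each other, and in the pairs of Hist1h2bc and Hist2h2be the H2B gene lies about 0.7 to 0.8 below its partner.

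Copies of histone genes are so alike that reads can be shared between them. Of the 50-base windows of a member's model, the median share also found in another gene's model was 1.13% for H1, 62.6% for H2A, 41.9% for H2B, 57.2% for H3 and 39.5% for H4. How reads that fit several genes were counted is not given in the sources used here, and single H2A and H3 genes in particular are uncertain for that reason. The 25 tested core members with under 50% of windows shared were all called higher, with a median log2 fold change of 2.40, and the 26 with more shared windows were also all higher, with a median of 2.29. Among members under 50% shared, the median was 1.91 for 3 H2A, 2.00 for 10 H2B, 3.09 for 4 H3 and 2.78 for 8 H4 genes, the same order of H3 and H4 above H2A and H2B. This split was chosen after the data were seen.

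Members also differed by what follows the stem-loop in their models. The 7 tested core members with AATAAA after the stem-loop had a median log2 fold change of 2.02, the 26 with a stem-loop and no AATAAA after it 2.61, and the 18 whose model held no stem-loop 2.15. All members of these groups were called higher. Class and this feature are mixed, and no test was made. A model that ends before a stem-loop shows none, so the group of 18 also depends on model length. In that group the longest models of Hist1h4k and Hist1h3h have 312 and 411 bases, while that of Hist2h2be has 2620.

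The factors that make and process histone messages moved both ways. Of 52 listed genes of histone transcription and messenger RNA processing that were tested, 34 rose, 13 fell and 5 were not called, with a median log2 fold change of 0.34. The split turned with library size alone, to 7 higher and 38 lower with a median of -0.62, and was 31 and 17 with upper-quartile scaling. Slbp, which encodes the stem-loop binding protein, went from 54.4, 53.7 and 57.3 to 89.6, 94.1 and 91.9 CPM, a log2 fold change of 0.74 ± 0.05 by edgeR (standard error, adjusted p = 6.2e-13) that became -0.23 with library size alone. Npat, the coactivator of histone transcription, rose by 0.84 ± 0.06, and Casp8ap2, whose product FLASH takes part in cleavage of the message, by 0.34 ± 0.06, and with library size alone they were at -0.12 and -0.63. Zfp473, which encodes a zinc-finger protein of the U7 machinery, rose from 0.748, 0.550 and 0.590 to 1.99, 1.49 and 1.43 CPM (1.37 ± 0.27), but was not called with library size alone (0.41, edgeR adjusted p = 0.152). The U7 snRNP subunit genes went apart, Lsm10 at -0.64 ± 0.14 and Lsm11 at 0.18 ± 0.08 (edgeR adjusted p = 0.040), a call that was lost with DESeq2, with upper-quartile scaling and without any single library other than uninduced replicate 3 (edgeR adjusted p of 0.0546 to 0.141 in those 5 fits). Eri1, an exonuclease gene that acts on the stem-loop, fell by 0.21 ± 0.06.

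The largest rises on that list were those of Clp1, Ell2 and Cstf2t. Clp1, a cleavage complex subunit gene, went from 14.7, 14.8 and 15.2 to 156, 140 and 148 CPM, a log2 fold change of 3.31 ± 0.06 by edgeR (standard error, adjusted p = 1.4e-24). The elongation factor gene Ell2 rose by 1.95 ± 0.06 and Cstf2t, a paralogue of the cleavage stimulation factor gene Cstf2, by 1.94 ± 0.04, while Cstf2 itself fell by 0.72 ± 0.06. Clp1, Ell2 and Cstf2t also rose with library size alone, at 2.35, 0.99 and 0.97. Lsm4 fell by 1.46 ± 0.07 and Upf3b, a nonsense-mediated decay factor gene, fell by 0.86 ± 0.08.

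Genes of S phase and DNA replication fell more often than they rose. Of 53 tested, 15 rose, 32 fell and 6 were not called, with a median log2 fold change of -0.34, and with library size alone all 53 were lower. Pcna, the sliding clamp of DNA polymerase, went from 223, 218 and 236 to 367, 370 and 372 CPM, a rise of 0.71 ± 0.04, and Uhrf1 and the ligase gene Lig1 rose by 0.86 ± 0.04 and 0.75 ± 0.05. With library size alone these 3 were at -0.25, -0.10 and -0.21. The helicase subunit gene Mcm6 went from 138, 128 and 126 to 41.7, 41.0 and 43.2 CPM and fell by 1.64 ± 0.05 by edgeR (standard error, adjusted p = 2.6e-19), the helicase cofactor gene Gins2 fell by 1.48 ± 0.09 and the licensing factor gene Cdc6 fell by 1.33 ± 0.08. The share of cells in S phase was not measured here, and its part in the histone values was not tested.

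Replacement histones centred on the middle of all genes. Of 10 tested, 4 were higher, 5 lower and 1 not called, with a median log2 fold change of -0.04, and all 10 were lower with library size alone. H3f3b, which encodes the replacement histone H3.3, went from 590, 572 and 603 to 644, 655 and 663 CPM, a log2 fold change of 0.15 ± 0.04 that was lost with upper-quartile scaling (edgeR adjusted p = 0.872). H2afz rose by 0.33 ± 0.04 and the linker histone gene H1fx by 0.53 ± 0.08, and with library size alone they were at -0.64 and -0.43. H1f0, a linker histone gene of differentiated cells, went from 253, 251 and 247 to 96.5, 97.1 and 99.0 CPM and fell by 1.36 ± 0.04 by edgeR (standard error, adjusted p = 1.7e-19). H2afy and H2afv fell by 0.61 ± 0.05 and by 0.51 ± 0.06. H2afx, whose message can also end in a stem-loop, was at 115, 124 and 119 against 143, 114 and 142 CPM and was not called (0.16 ± 0.07, edgeR adjusted p = 0.055).

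**Figure D5:**
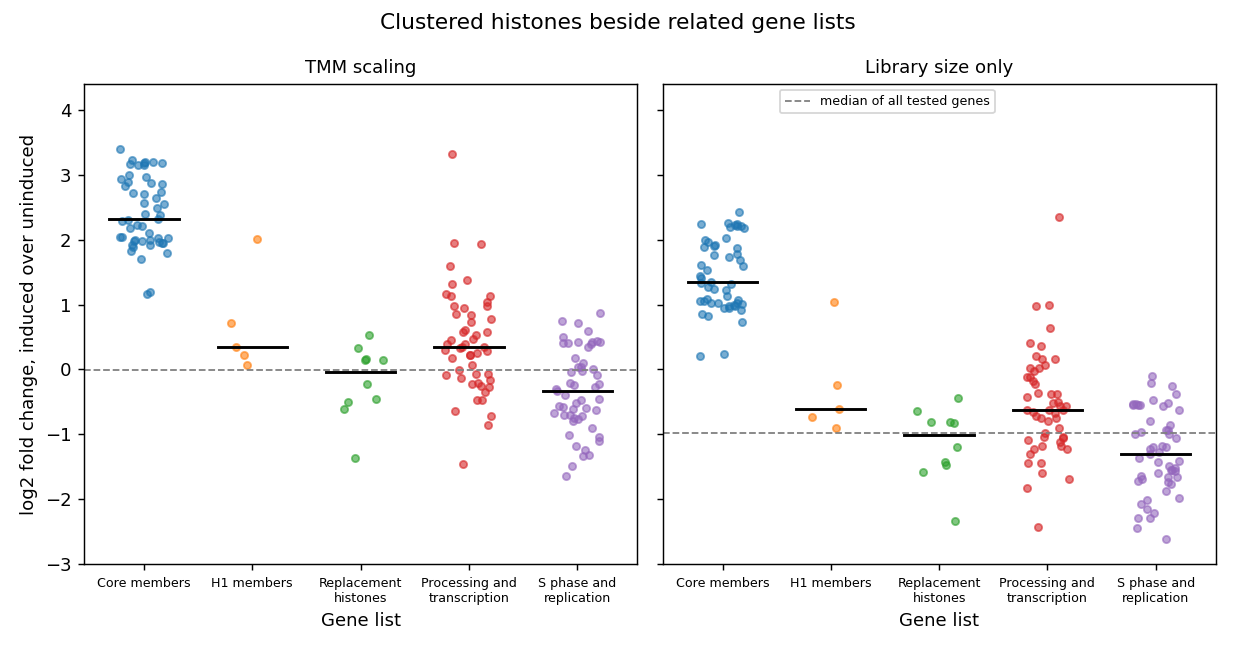
Log2 fold change of the tested genes of 5 groups (points, spread sideways at random) with their medians (black lines) and the median of all tested genes (dashed line), with TMM scaling on the left and library size alone on the right. Core histones lie above the dashed line in both panels, while replacement histones, processing factors and S phase genes spread around it.

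Other RNAs without a poly(A) tail gave low counts. Of 18 such RNAs, a list made after the data were seen, 15 were in the table, 7 were at 0 throughout and 2 were tested. Their summed level was 0.539 to 0.787 CPM without and 4.30 to 5.24 CPM with doxycycline, most of the latter from Rpph1 and Rmrp. Rpph1, the RNA of ribonuclease P, went from 0.0299, 0.0647 and 0.0656 to 1.48, 1.62 and 1.78 CPM, with 5 counts in all uninduced libraries together. It was tested only through its induced counts, so that its call carries no weight. Rmrp went from 0.269, 0.421 and 0.492 to 2.22, 1.49 and 0.918 CPM (1.97 ± 0.35). Its lowest uninduced library was below the minimum of the count filter. Rmrp was therefore kept only with the help of its induced counts, and its call carries no weight either. How much RNA without a poly(A) tail entered each library was not measured, and its part in the histone values was not tested.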

How the data were processed

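Polyadenylated RNA was sequenced from 3 uninduced and 3 induced cultures, with groups taken from the treatment label. The authors deposited raw counts of reads per gene. Per the submitters' processing notes, CASAVA, TopHat2 2.0.12 and Bowtie2 2.2.3 were used and the build was mm10. Which tool counted the reads, with which annotation, strand setting and treatment of reads that fit several genes, is not given in the sources used here, so overlapping genes and near-identical copies can share reads.

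The counts were read into R 4.3.3 unchanged. Genes were kept by filterByExpr defaults (12969 genes), scaled with TMM and tested across the whole table with edgeR 4.0.16 (glmQLFit with robust=TRUE, glmQLFTest, two-sided, group as the only term), with Benjamini-Hochberg adjustment and calls made at 0.05. Each standard error was taken as the log2 fold change over the root of its F statistic. On simulated counts with known changes, the test called most of the changed genes in the right direction. Only a small set of genes was changed there, up and down alike. The simulation therefore could not show how the scaling behaves in these data, where most genes were called. Alternatives used DESeq2 1.42.0, limma-voom (limma 3.58.1), other scalings and filters, a replicate block and each library left out. Class and cluster values are sums of counts without a test. Gene models came from GENCODE M21, and coordinates and promoters from the RefSeq tables of GRCm38.p6, the assembly of mm10.

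The members and the gene lists were chosen with earlier results of these data known. Genes named are, per class, the 2 with the most counts and the 3 with the largest rises and falls, testis-type members, members of Hist3 and Hist4, tested members not called, and per other list the 3 largest rises and falls and 7 genes of histone processing. Outside that rule Hist1h2ac, Hist1h2be, Hist2h2ac, Hist2h2ab, Hist2h2be, Hist2h4, H2afx, Rpph1 and Rmrp were named after their values were seen. Hist1h4j was also outside the rule and was printed only for its form of the stem-loop. Of 53 listed processing genes 52 matched a symbol, and 1 was misspelt. Of the marker lists, 1 of 2 tested fibroblast markers was higher and 1 lower, 0 of 1 macrophage marker was called, 1 of 1 endothelial marker was higher but was tested only through its induced counts, and no epithelial marker was tested.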

Additional observations from a re-analysis of the deposited data

How the results depend on the processing

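Between 51 and 56 members were called higher under every alternative, with 62 members tested in place of 56 without the low-count filter. None was called lower except under scaling by library size alone, where 3 were, as were 9949 of all 12969 tested genes. The log2 ratio of summed counts was 2.26 for all members, 0.19 for H1, 2.04 for H2A, 2.02 for H2B, 3.01 for H3 and 2.86 for H4. With library size alone these became 1.30, -0.78, 1.07, 1.05, 2.05 and 1.90, as all genes shifted down together. With upper-quartile scaling H1 was at 0.042 and H2B at 1.87. Without Hist1h1c, which has the most counts, H1 was at 0.61. With only members under 50% shared, an alternative chosen after seeing the data, all members were at 2.09 and H2B at 1.81. Leaving out each library in turn gave 52 to 53 members higher and 0 lower, and ratios of 2.19 to 2.38 for all members, 0.13 to 0.28 for H1, 1.94 to 2.18 for H2A, 1.97 to 2.10 for H2B, 2.94 to 3.14 for H3 and 2.75 to 2.96 for H4. Of 448 comparisons of 25 named members with their alternatives, 441 kept direction and call, 4 gained a call and 3 reversed (Hist1h1c, Hist1h1d and Hist1h1e with library size alone). Of 450 for 25 other named genes, 419 kept both, 21 lost the call and 10 reversed, all 10 with library size alone: Slbp at -0.23, Npat at -0.12, Casp8ap2 at -0.63, Lsm11 at -0.79, Uhrf1 at -0.10, Lig1 at -0.21, Pcna at -0.25, H1fx at -0.43, H2afz at -0.64 and H3f3b at -0.81. The reversed members were at -0.90, -0.74 and -0.62. The labels do not say what libraries of the same number share, and the deviations of same-numbered libraries correlated at only 0.06, 0.02 and 0.03. A replicate block, which therefore pairs libraries by number alone, left 52 members higher and 0 lower, and 5411 of all genes higher in place of 5351. Every library did correlate best with its own number, a hint from the data and not from the design. With 3 libraries a group, a member with 3 counts in a library is at 0.0898 to 0.194 CPM, which limits what the sparse members can show.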
